A study of Oryza sativa with 6 samples.

Results

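The early response of the susceptible rice line 9311 to the brown planthopper (BPH, a phloem-feeding insect) was examined through its known miRNAs, as the library after 6 h of feeding (PC-6) against the library of plants that were not infested (PC-0). Members were the entries annotated as rice miRNAs, with entries of 1 mature sequence counted once through the copy with the most reads. Of 337 such sequences, from 464 entries, 304 had a read in PC-0 or PC-6, and 280 were detected in each. The study sequenced 6 small RNA libraries, 1 for each of 3 times (0, 6 and 48 h) in 2 lines, the susceptible recipient line 9311 (PC) and the introgression line P15, which carries the resistance locus BPH15 in that background. PC-48 and the P15 libraries are used here only for comparison. According to the sample labels the tissue was leaf sheath of 3-week-old plants with 4 leaves, whereas the study's methods name younger seedlings and their stems. The methods also state that the stems of the plants of a treatment were combined, so each condition is 1 pooled sample. Feeding began at staggered times and ended together, so the 0 h and 6 h plants were cut at the same time.

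Most plant miRNAs are cut from hairpin precursors by DCL1 as a duplex of a guide and a star strand. The guide is in most cases loaded into AGO1, where it directs the cleavage or translational block of nearly complementary transcripts. This outline may not hold for the 24-nt sequences. Several conserved families regulate transcription factors and hormone signalling. Others rise and fall with the supply of phosphate, sulfate or copper. The bases that follow the first base at the 5′ end form the seed, which weighs heavily in target pairing.

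The sequences on which the results turn are printed first, 5′ to 3′ as DNA letters, with the seed (bases 2 to 8) in capitals. The miR399 and miR395 guides come first because they hold 4 of the 5 guides called in this comparison, and the 3 of miR399 share 1 seed. Positions of the precursors in the genome are not given here.
miR399d: tGCCAAAGgagagttgccctg
miR399j: tGCCAAAGgagagttgcccta
miR399a: tGCCAAAGgagaattgccctg
miR395g: gTGAAGTGtttgggggaactc

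The other called miRNAs with at least 20 reads follow, since each stands for a different family and shares its seed with neither group above.
miR444d.3: tTGTGGCTttcttgcaagttg
miR167c-3p: gGTCATGCtgcggcagcctcact
miR1862a: aCGAGGTTggtttattttgggacg
miR6249a: cGTGAAGAgctcgccggcggc
miR812n-5p: aAGTGCAGccatgagtttccgtgc
miR6248: tATTTGAGgatggaggtagta

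The last set holds abundant guides, and star strands whose balance with their guides differed between the libraries.
miR166a-3p: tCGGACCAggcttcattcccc
miR166g-3p: tCGGACCAggcttcattcctc
miR166a-5p: gGAATGTTgtctggttcaagg
miR166c-5p: gGAATGTTgtctggtccgag
miR156d: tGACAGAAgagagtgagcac
miR168a-5p: tCGCTTGGtgcagatcgggac
miR168a-3p: gATCCCGCcttgcaccaagtgaat

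The authors deposited read counts and TPM, a count divided by a library total and brought to the same scale in all libraries. That total was 1343912 reads in PC-0 and 1258734 in PC-6, so 1 read is worth 0.744 and 0.794 TPM, and 0 reads allow up to 2.23 and 2.38 TPM (3 reads). Over the 6 libraries the totals lay between 1078716 and 1644065. A fold change is the ratio of TPM with its exact 95% counting interval in parentheses. A sequence was called when its log2 fold change was 1 or more in either direction and the unadjusted P of edgeR's exact test with dispersion 0 was under 0.05. The study states the same thresholds. With 1 library per condition the test compares the 2 libraries and not the conditions, no difference has a replicate check, and intervals and floors cover counting error only. Markers of panicle tissue had few reads. The miR2118 guides, triggers of phased small RNAs in panicles, had 140 reads in PC-0 and 136 in PC-6, and those of miR2275 had 6 and 3.

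After 6 h of feeding, 12 of the 304 sequences were called (3.95%), 10 of them lower (3.29%) and 2 higher (0.658%). The lower group held 3 miR399 guides, which target the ubiquitin-conjugating enzyme PHO2 of phosphate homeostasis, and the miR395 guide, a regulator of ATP sulfurylases and of a sulfate transporter. It also held miR444d.3, of a family that targets MADS-box factors, the star strand miR167c-3p, the 24-nt miR1862a, miR6249a, and 2 sequences with fewer than 20 reads, miR530-3p and miR2864.2. miR812n-5p and miR6248 were higher. This split depended on how the libraries were scaled. It was 5 higher and 5 lower with TMM, 4 and 8 with median-of-ratios, and 16 and 2 when the miR166 reads were left out of the totals. TMM moved the median log2 fold change of all sequences with at least 20 reads from -0.06 to 0.09, and the last setting moved it to 0.38. That setting subtracts summed reads that may be counted more than once. The distinct known sequences summed to 101% of the library total in PC-0 and 107% in PC-6. The subtraction may therefore take out too much, and unequally, so its values are not an unbiased scaling.

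**Figure D1:**
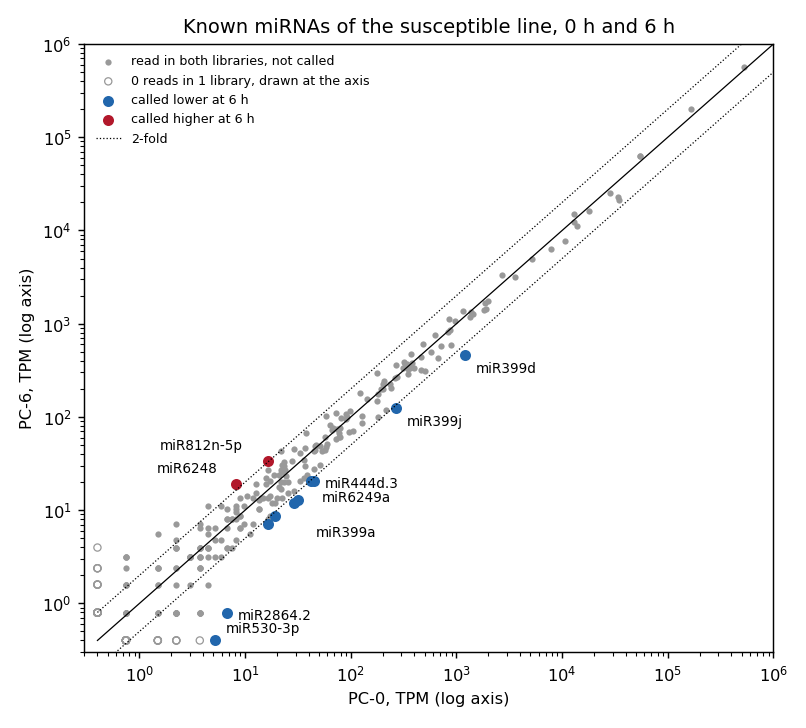
TPM in PC-0 (x, log axis) against PC-6 (y, log axis) for the 304 sequences, with the line of equality and dotted 2-fold lines. Blue points are the 10 called lower, red points the 2 called higher, and open points have 0 reads in 1 library and are drawn at the axis edge (as is miR530-3p). The abundant sequences lie inside the 2-fold lines, and miR399d is the called point with the highest TPM.

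The miR399 guides with at least 20 reads were all called lower. miR399d had 1609 reads in PC-0 and 587 in PC-6, or 1197 and 466 TPM, and fell to 0.390 (0.354 to 0.428) times its level at 0 h (log2 fold change -1.36). miR399j had 357 and 158 reads, or 266 and 126 TPM, and fell to 0.473 (0.389 to 0.571) times. Both lay below PC-0 by more than counting error, and their intervals overlap. miR399a, whose sequence is shared with miR399b and miR399c, had 42 and 16 reads, and fell to 0.407 (0.213 to 0.739) times. The remaining members were too scarce to compare, miR399i with 3 reads in PC-0 and 0 in PC-6 and miR399k with 1 read in each. The 5 sequences carry 1 seed, GCCAAAG, so reads of miR399d, miR399j and miR399a, which differ at few bases, may be shared if the authors' matching allowed mismatches. miR827, which acts in the same pathway and in rice targets SPX-domain phosphate transporters, had 1815 and 1479 reads, a ratio of 0.870 (0.812 to 0.932) that was not called. Of the 4 phosphate guides with at least 20 reads 3 were called lower, where 8 of all 148 sequences of that depth were, with a median log2 fold change of -1.19 against -0.06 over the 148.

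miR395g stood for 16 entries with 1 mature sequence, and had 39 reads in PC-0 and 15 in PC-6, or 29.0 and 11.9 TPM. It fell to 0.411 (0.210 to 0.762) times its level at 0 h. The copies held 35 to 39 reads in PC-0 and 15 in PC-6, so the 16 entries are 1 measurement and not 16. The only other miR395 sequence with a read, miR395c, had 1 read in PC-0 and 0 in PC-6.

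miR444d.3 fell from 60 to 26 reads, a ratio of 0.463 (0.280 to 0.744). The family is known from monocots, where its MADS-box targets take part in nitrate signalling and tillering. All 5 miR444 guides with at least 20 reads lay below 1 with library totals, and 4 of them, miR444d.3 included, had an interval under 1. Of all 148 sequences of that depth, 89 lay below 1 and 41 had an interval under 1. The median log2 fold change of the 5 miR444 guides was -0.25, against -0.10 with TMM and 0.19 with totals less the miR166 guides. The most abundant, miR444b.2, had 4815 and 4004 reads, a ratio of 0.888 (0.851 to 0.926), far inside the 2-fold threshold, so the call of miR444d.3 does not extend to the family.

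Of the less conserved miRNAs, miR1862a with its copies miR1862b and miR1862c fell from 26 to 11 reads, to 0.452 (0.201 to 0.946) times. Its relative miR1862d, at 1835 and 1676 reads, was 0.975 (0.912 to 1.04) times. miR6249a fell from 56 to 26 reads, to 0.496 (0.299 to 0.803) times, and lay nearest to the fold threshold on the lower side. miR167c-3p, the star strand of a miR167 precursor, fell from 22 to 9 reads, to 0.437 (0.177 to 0.987) times. Both miR1862a and miR167c-3p have intervals that end close to 1. miR530-3p had 7 reads before and 0 after feeding, at least 2.19-fold lower against the limit of 3 reads, and miR2864.2 had 9 and 1, a ratio of 0.119 (0.00271 to 0.856).

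miR812n-5p rose from 22 to 42 reads, to 2.04 (1.19 to 3.59) times, or from 16.4 to 33.4 TPM. miR6248 rose from 11 to 24 reads, to 2.33 (1.10 to 5.27) times. Another 24-nt sequence of the miR812 family, miR812k with its copies miR812l and miR812m, had 79 and 127 reads, a ratio of 1.72 (1.29 to 2.30) that stayed under the threshold. Of the 4 miR812 sequences with at least 20 reads 3 lay above 1, where 59 of all 148 sequences of that depth did.

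**Figure D2:**
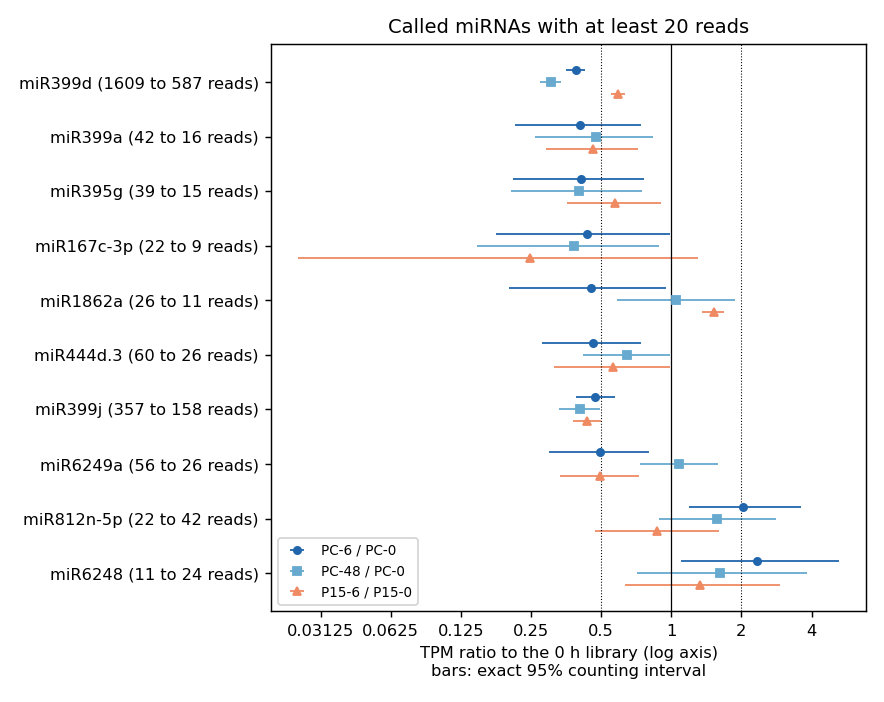
Ratio of TPM to the 0 h library (log axis) for the 10 called miRNAs with at least 20 reads, in PC-6 (dark circles), PC-48 (light squares) and P15-6 (triangles), with exact 95% counting intervals. Dotted lines mark 2-fold. miR399d lies at 0.390, 0.304 and 0.588, whereas miR1862a lies at 0.452 in PC-6 and 1.52 in P15-6.

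At 48 h, in a library read against the same PC-0 and so not independent of the 6 h values, miR399 and miR395 were still low and some others were not. Of the 10 sequences called lower, 8 were also below PC-0 in PC-48 and 6 had an interval under 1 there. miR399d had 467 reads in PC-48, 0.304 (0.274 to 0.337) times PC-0, and miR399j 138 reads, 0.405 (0.330 to 0.494) times. miR395g had 15 reads again, 0.403 (0.206 to 0.747) times. miR6249a had 58 reads and miR1862a 26, ratios of 1.08 (0.738 to 1.59) and 1.05 (0.584 to 1.88), and for both the interval of PC-48 against PC-6 lay over 1. miR812n-5p and miR6248 lay at 1.57 (0.889 to 2.83) and 1.62 (0.715 to 3.82) times PC-0.

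The most abundant miRNAs differed between the libraries by less than 2-fold. miR166a-3p, which targets HD-ZIP III factors of leaf polarity and vascular development, had 700338 reads in PC-0 and 706002 in PC-6, a ratio of 1.08 (1.07 to 1.08). miR166g-3p, with 221361 and 251885 reads, was 1.21 (1.21 to 1.22) times its level at 0 h. The miR166 guides added up to 73% of the library total in PC-0 and 80.2% in PC-6, where sequences that are nearly the same may count a read more than once. All distinct known sequences together summed to 101% of the library total in PC-0 and 107% in PC-6. The sums thus exceed the total, and by more in PC-6, so the rise of the miR166 share may be overstated. Since TPM divides by the library total, the miR166 share enters the ratio of every other miRNA.

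Copies with 1 mature sequence did not always hold the same reads. Of 62 sequences with several entries, 28 differed among copies and 9 by more than 1.5 times. miR166h-3p, identical in sequence to miR166g-3p, had 9571 and 8601 reads and a ratio of 0.959, on the other side of 1, so for this sequence the direction rested on which copy was read. The copies of miR166a-3p had ratios of 1.01 to 1.08. miR156a, identical to miR156d, had 10291 and 6323 reads and a ratio of 0.656, near that of miR156d.

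miR156d, which targets SPL factors that promote the adult phase, had 46000 reads in PC-0 and 26642 in PC-6, a ratio of 0.618 (0.609 to 0.628). miR168a-5p, which targets AGO1 itself, had 45696 and 28539 reads, a ratio of 0.667 (0.657 to 0.677). Among the 10 most abundant sequences these were the lowest ratios, well outside counting error and short of the threshold. miR162a, which targets DCL1, had 7005 and 6146 reads, 0.937 (0.905 to 0.970) times, and its ratio passed to the other side of 1 under another scaling. miR396f-5p and miR396e-5p, which overlap in sequence and hold nearly the same reads, were each 1.14 (1.13 to 1.15) times their level at 0 h, and miR396c-5p, which like them targets growth-regulating factors, was 0.797 (0.780 to 0.815) times. miR1425-5p, which targets PPR genes, had 17351 and 18987 reads, 1.17 (1.14 to 1.19) times.

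Sequences whose interval lay entirely on 1 side of 1 were more common than calls, 43 under 1 (14.1%) and 23 over 1 (7.57%) of the 304, and 33 and 21 of these were under 2-fold. Their balance depended on the scaling and turned to 26 under and 39 over with TMM, whereas it was 38 and 27 with median-of-ratios and 44 and 23 with clean reads as totals. With totals less the miR166 guides, which may subtract reads more than once, it was 9 under and 82 over.

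The auxin families lay on both sides of 1. miR167f, which targets the auxin response factors of one clade, had 14215 and 9701 reads and was 0.729 (0.710 to 0.748) times, and miR167a-5p, with the same seed, had 683 and 395 reads and was 0.617 (0.544 to 0.700) times. miR390-5p, which triggers small RNAs from TAS3 transcripts, had 1196 and 741 reads and was 0.661 (0.603 to 0.726) times. miR393b-5p, which targets the TIR1/AFB auxin receptors, had 2549 and 1829 reads and was 0.766 (0.721 to 0.814) times. These 4 had intervals under 1, whereas the miR160 guides, which target another clade of auxin response factors, lay above 1. miR160e-5p had 162 and 228 reads and was 1.50 (1.22 to 1.85) times, miR160c-5p 280 and 309 reads and 1.18 (0.999 to 1.39) times, and miR160f-5p 1.08 (0.840 to 1.40) times. None of the 8 auxin guides was called, where 12 of all 304 sequences were (3.95%).

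Guides of the other transcription factor families lay on both sides of 1, and those named here were short of the threshold. miR159a.1, which targets GAMYB factors, was 0.799 (0.776 to 0.823) times its level at 0 h, and miR159f, with the same seed, 0.641 (0.576 to 0.714) times. miR319b, which targets TCP factors, was 1.23 (1.12 to 1.35) times. miR164b, which targets NAC factors, had 504 and 589 reads and was 1.25 (1.11 to 1.41) times, and miR171f-3p, which targets GRAS factors, had 425 and 491 reads and was 1.23 (1.08 to 1.41) times. miR169h, which targets NF-YA subunits, was 1.14 (0.995 to 1.30) times, and miR394, which targets an F-box protein, 1.08 (0.944 to 1.23) times. miR172d-3p, which targets AP2-like factors and opposes miR156 in ageing, had 89 and 91 reads, 1.09 (0.806 to 1.48) times. miR529b, like miR156 a regulator of SPL factors, had 32 and 34 reads, and miR535-5p 172 and 129 reads, 0.801 (0.632 to 1.01) times.

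The copper miRNAs, whose targets are copper proteins, were scarce at both times and none was called, where 12 of all 304 sequences were (3.95%). miR398b, which targets copper/zinc superoxide dismutases, had 18 reads in PC-0 and 16 in PC-6, but 96 in PC-48. miR528-5p, which targets ascorbate oxidase, had 11, 22 and 50 reads. Its ratio of 2.14 (0.992 to 4.88) at 6 h passed the fold threshold but not the test, and it was called with TMM. miR397a, which targets laccases, had 8 and 14 reads, and miR408-3p, which targets blue copper proteins, 72 and 54. miR1432-5p, whose target is a calcium-binding protein of the EF-hand type, had 141 and 89 reads and was 0.674 (0.511 to 0.885) times. miR820a, which targets the DNA methyltransferase DRM2, had 357 and 448 reads and was 1.34 (1.16 to 1.54) times. Of the scarce guides, miR530-5p had 23 and 11 reads, 0.511 (0.225 to 1.09) times, and miR1861b 22 and 10 reads, 0.485 (0.205 to 1.07) times. At such depth the data do not show whether they differed.

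By length, 9 of the 12 called sequences were 21 nt long. Of the 164 sequences of 21 nt with a read, 1 was called higher and 8 lower, and of the 71 of 24 nt 1 in each direction, against 2 and 10 of all 304 (0.658% and 3.29%). The medians of both classes were -0.06 on the log2 scale, as over all. The 16 sequences of 22 nt with at least 20 reads had a median of -0.34 and 0 calls. Of 143 sequences with a first T, the base that AGO1 favours as U in RNA, 1 was called higher and 5 lower. Among conserved families, 5 of 86 guides and 2 of 45 star strands were called, all lower, with medians of -0.13 and -0.07. The shares of first T and of star strands lie near the 3.29% called lower over all sequences. That of the guides is higher but rests on 5 calls, and no difference between classes was tested.

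Guide and star strands can be compared by the ratio of their reads, which no scaling of the library changes. This ratio was added after the values were seen and is given with counting intervals and no test. For 33 pairs with at least 20 reads of each strand in PC-0 or PC-6, the median change in PC was -0.14 on the log2 scale, with 9 intervals under 0 and 4 over 0. Pairs that share a guide are not independent. Where 1 guide sequence belongs to several entries, its reads are not specific to 1 precursor, so the ratio does not describe a single precursor. miR168a-5p had 1.90 reads per read of miR168a-3p in PC-0 and 1.41 in PC-6, a log2 change of -0.44 (-0.47 to -0.40), where the star itself was 0.902 (0.885 to 0.919) times its level at 0 h. miR390-5p had 13.9 and 7.12 reads per star read, a change of -0.96 (-1.39 to -0.53), and miR393b-5p 1.95 and 1.35, a change of -0.53 (-0.67 to -0.39). The star miR390-3p had 86 and 104 reads, 1.29 (0.961 to 1.74) times, so here the strands lay on opposite sides of 1.

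Of the 10 star sequences of miR166, 7 lay above 1 and 3 below, where 59 of all 148 sequences with at least 20 reads lay above 1. miR166a-5p had 237 and 372 reads, 1.68 (1.42 to 1.98) times, miR166c-5p 51 and 85 reads, 1.78 (1.24 to 2.57) times, and miR166d-5p 98 and 139 reads, 1.51 (1.16 to 1.98) times. All 5 star sequences with the seed GAATGTT had ratios above 1, among which miR166b-5p and miR166h-5p had intervals that include 1. These 5 differ at few bases, so they may share reads if the authors' matching allowed mismatches, and they may not be independent. The most read star of the family, miR166j-5p, had 775 and 620 reads, 0.854 (0.767 to 0.951) times, and miR166k-5p and miR166l-5p were 0.988 and 0.967 times. Guide to star, miR166a-3p changed by -0.64 (-0.87 to -0.40) and miR166j-3p by 0.23 (0.08 to 0.39), so the miR166 pairs did not move one way. These 2 guides are copies of 1 mature sequence, so the contrast rests mainly on the star reads. miR171e-5p had 287 and 149 reads, 0.554 (0.452 to 0.678) times, while its guide was above 1, and the miR171e ratio went from 1.48 to 3.30, a change of 1.15 (0.81 to 1.49). The miR1425 ratio changed by 1.08 (0.31 to 1.85), with 39 and 20 star reads.

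**Figure D3:**
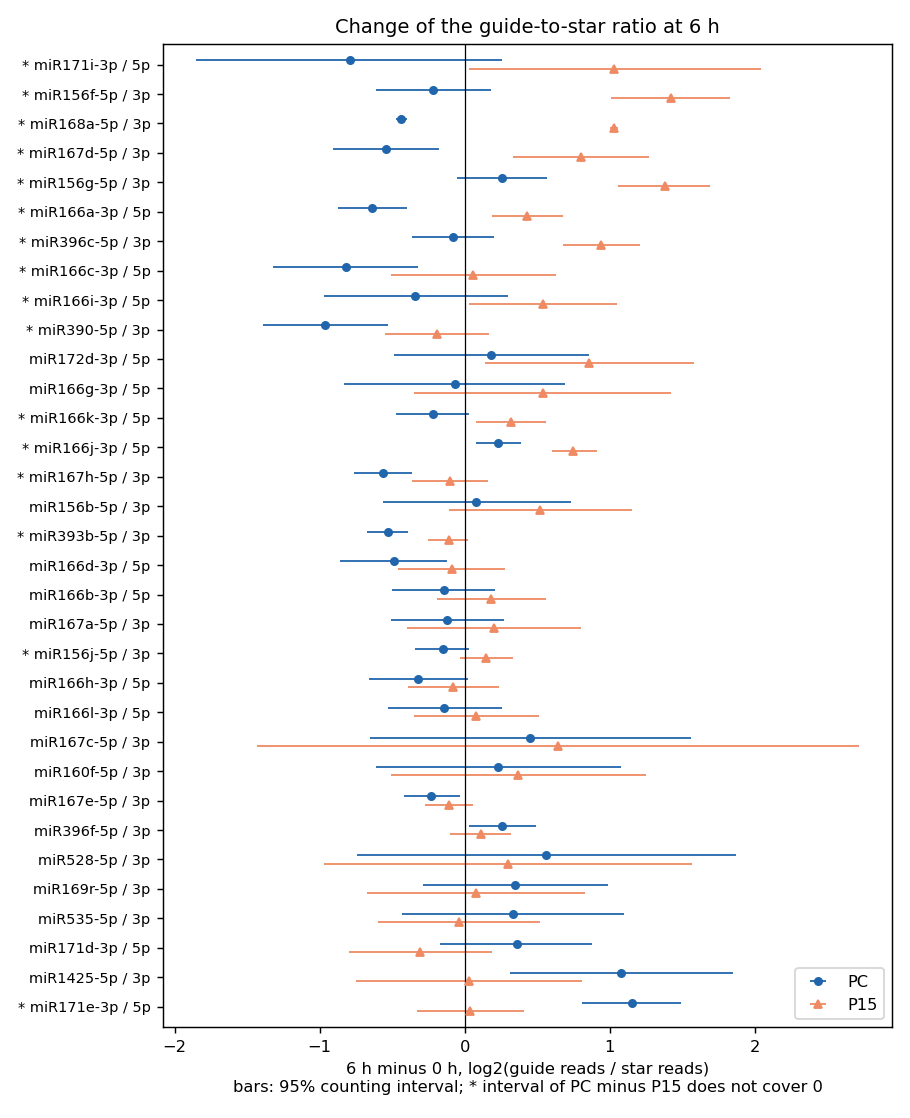
Change from 0 h to 6 h of log2(guide reads / star reads) in PC (circles) and P15 (triangles) for 33 pairs, with 95% counting intervals, in the order of the difference PC minus P15. An asterisk marks the 16 pairs whose interval of that difference does not cover 0, 15 with PC lower than P15 and 1, miR171e, with PC higher.

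The same interval of feeding was read in the resistant line from separate libraries. In P15-6 against P15-0, 41 of 308 sequences were called lower (13.3%) and 0 higher by edgeR's exact test. With TMM, which moved the median log2 fold change of P15 from -0.45 to 0.04, this became 15 lower and 6 higher, with median-of-ratios 14 and 6, and with clean reads as totals 22 and 0, scalings applied to P15 after the values were seen. With library totals the lines shared 4 calls, which are 33.3% of those of PC and 9.76% of those of P15. miR399d had 2001 and 1357 reads in P15, a ratio of 0.588 (0.549 to 0.631), and the log2 response of PC minus that of P15 was -0.59 (-0.76 to -0.43). For miR399j, with 586 and 294 reads and a ratio of 0.435 (0.377 to 0.501) in P15, this difference was 0.12 (-0.22 to 0.46). miR395g had 50 and 33 reads, 0.572 (0.357 to 0.906) times, and a difference of -0.46 (-1.51 to 0.60). For miR399j and miR395g no difference between lines was detectable with library totals. Median-of-ratios shifted every such difference by -0.48, more than the 0.46 at which the miR399j interval ends. For miR399j the result therefore depends on the scaling.

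The response differed between the lines by at least 1 on the log2 scale, at an unadjusted P under 0.05 from counting error (normal approximation), for 28 of 155 sequences (18.1%), with PC the higher in 26. The median difference over all 155 was 0.30, and TMM shifted every difference by -0.34, which left 10. Of the 12 sequences called in PC only miR1862a and miR812n-5p were among the 28. miR1862a had 533 and 932 reads in P15, a ratio of 1.52 (1.36 to 1.69), and a difference of -1.71 (-2.72 to -0.70). Whichever of the library totals, TMM, median-of-ratios or clean reads was used, 8 sequences passed, namely miR160e-5p, miR169n, miR172d-5p, miR528-5p, miR528-3p and miR530-5p with PC the higher and miR159f and miR1862a with PC the lower. miR160e-5p was 1.50 times its level at 0 h in PC and 0.421 (0.341 to 0.519) times in P15, a difference of 1.83 (1.42 to 2.24). miR530-5p, at 67 and 6 reads in P15, differed by 2.65 (1.10 to 4.19), and miR159f by -1.04 (-1.24 to -0.84).

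**Figure D4:**
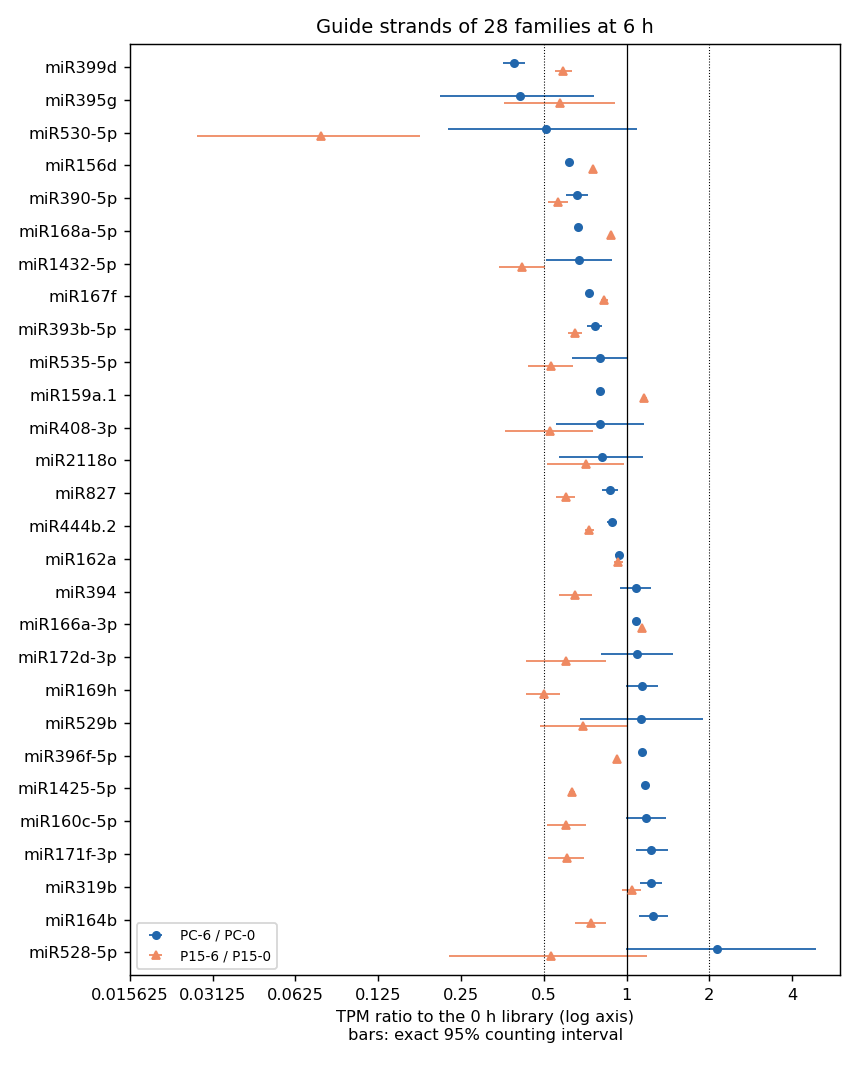
Ratio of TPM at 6 h to 0 h (log axis) in PC (circles) and P15 (triangles) for the most read guide of each of 28 families with at least 20 reads, with exact 95% counting intervals and dotted lines at 2-fold. In PC 16 lie below 1 and 12 above, and in P15 25 lie below 1 and 3 above, which became 15 and 13 in PC and 18 and 10 in P15 with TMM, and 16 and 12 in both lines with median-of-ratios. miR399d and miR395g are the 2 called in PC.

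The strand ratios gave the same kind of comparison without scaling. The miR168a ratio changed by -0.44 in PC and by 1.03 (1.00 to 1.06) in P15, where it went from 1.72 to 3.51, so the difference between the lines was -1.47 (-1.51 to -1.42). For miR166a the difference was -1.07 (-1.41 to -0.73), and for miR156f, whose guide is identical to miR156d, -1.64 (-2.20 to -1.07). In P15, 11 of the 33 intervals lay over 0 and 0 under 0.

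A fit over all 6 libraries was the only one with residual degrees of freedom, 2 of them. In edgeR's quasi-likelihood test of 6 h against 0 h, with line and time as additive terms, 0 of 180 sequences were called (0.00%) at a Benjamini-Hochberg adjusted p under 0.05, the smallest adjusted p was 0.329, and 22 had an unadjusted p under 0.05. DESeq2 also called 0, with 9 at an unadjusted p under 0.05. The fit takes the difference between the lines' responses as error, and its coefficient of variation between libraries was 0.184. When a coefficient of variation of 0.2 was put into the exact test in place of 0, 7 of the 12 calls in PC remained, all lower: miR399d, miR399a, miR399j, miR395g, miR444d.3, miR530-3p and miR2864.2. At 0.4 the test kept only miR530-3p.

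**Figure D5:**
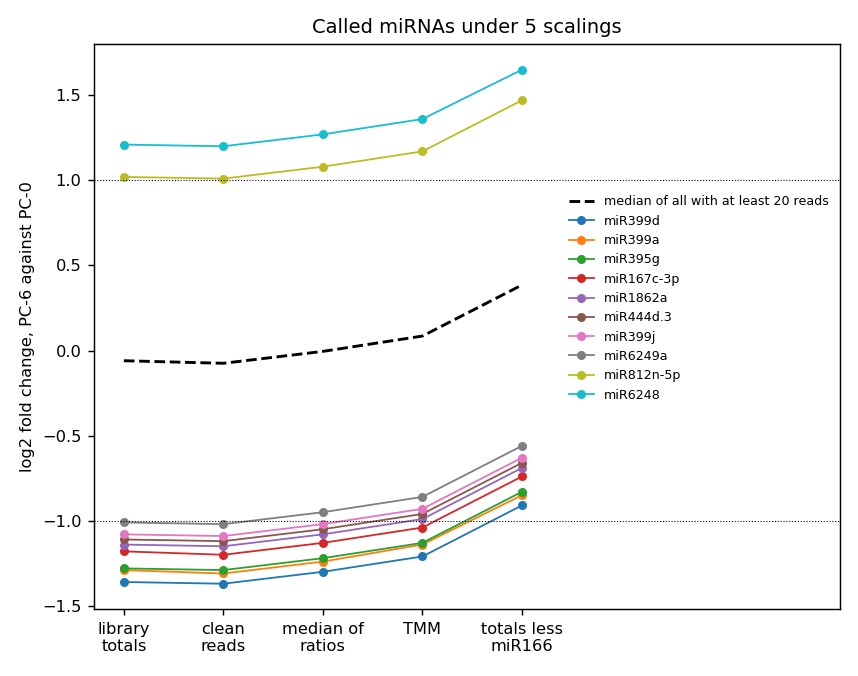
Log2 fold change of PC-6 against PC-0 (y) for the 10 called miRNAs with at least 20 reads under 5 scalings (x), with the median of the 148 sequences of that depth as a dashed line and dotted lines at -1 and 1. miR399d, miR399a and miR395g stay below -1 in the first 4 scalings and lie above -1 with totals less the miR166 guides.

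The calls of miR399d, miR399a and miR395g held under TMM, median-of-ratios and clean-read totals. They were lost with the totals less the miR166 guides, where miR399d was at -0.91, a setting that may subtract reads more than once. miR399j, miR444d.3 and miR1862a were not called with TMM, and miR167c-3p and miR6249a with neither TMM nor median-of-ratios. miR812n-5p and miR6248 were called in each of these settings. Neither was called with a coefficient of variation of 0.2 or at the common dispersion. After Benjamini-Hochberg adjustment miR6248 was no longer called, and with prior count 2 miR812n-5p was not.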

How the data were processed

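Small RNAs were sequenced from 6 libraries, 1 per line and time. The authors removed other RNA classes and reads mapping to exons, introns and repeats, searched the rest against miRBase release 21, and deposited a read count and a TPM per entry, with 0 reads written as 0.01. For this search, the sources used here name no aligner and no limit on mismatches. Library totals were computed back from the deposited count and TPM of entries with at least 50 reads and make up 9.69% (PC-0) and 9.60% (PC-6) of the clean reads that the study lists. Members, lists and comparisons were chosen with earlier results of these data known. One entry per mature sequence was tested with exactTest of edgeR 4.0.16 (dispersion 0, prior count 0.125, unadjusted P under 0.05, absolute log2 fold change of at least 1) in R 4.3.3. The study names edgeR, but not its dispersion or library sizes. Fold changes are ratios of TPM with exact conditional 95% intervals, the difference between lines uses counts with 0.5 added and at least 20 reads in 1 of 4 libraries, and log2 fold changes are edgeR's. Alternatives were TMM, median-of-ratios, clean reads as totals, other dispersions, prior count 2, an abundance filter, adjusted P, other copies and DESeq2 1.42.0. limma 3.58.1 was loaded by edgeR, and tables and figures came from scipy 1.17.1, pandas 2.3.3 and numpy 2.4.6 under Python 3.11.15. Totals less miR166 guides, the scalings of P15-6 against P15-0 and the guide-to-star ratios were chosen after seeing the data.

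Tested on simulated PC-6/PC-0 data with 337 sequences, the test called 47 of 48 sequences simulated at 4-fold, 26 of 47 at 2-fold and 0 of 64 without change with at least 20 reads, and 10 of 44, 2 of 37 and 0 of 58 with fewer. The simulated counts held counting error only, with no spread between libraries. The unchanged sequences therefore give no rate of false calls for the real libraries, where the fit estimated a coefficient of variation of 0.184. The named miRNAs were every called one with at least 20 reads, those with fewer by counts, the 10 most abundant in PC-0, and the most read guide of each family on the lists. Others were named after their values were seen (miR399i, miR399k, miR395c, miR156a, miR166h-3p, miR167a-5p, miR159f, miR160e-5p, miR160f-5p, miR169n, miR172d-5p, miR528-3p and the star strands). The authors' predicted miRNAs and matches to other plants were not members.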

Additional observations from a re-analysis of the deposited data

Results flagged for a closer look

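The 6 h response differed between the lines for 7 named sequences, as log2 fold change in PC minus that in P15 with library totals, at an unadjusted P under 0.05 from counting error of 4 single libraries. miR530-5p differed by 2.65, miR528-5p by 1.95, miR812n-5p by 1.22, miR169h by 1.19, miR168a-3p by 1.07 and miR171f-3p by 1.03, each with PC the higher, and miR1862a differed by -1.71. With TMM, median-of-ratios and clean reads, miR530-5p, miR528-5p and miR1862a kept a difference of at least 1.

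In data outside the known miRNAs, the same exact test called 10 of 576 predicted sequences in PC-6 against PC-0, 2 of them higher, and 6 of 456 matches to other plants, 1 of them higher. After Benjamini-Hochberg adjustment 0 of either kind passed, and by unadjusted P they were 10 and 6. The higher ones were the predicted m0116-5p with 2 and 10 reads, m0377-5p with 1 and 8, and MIR164-x with 8 and 19.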

How the results depend on the processing

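The 2 sequences called higher in PC-6 became 5 with TMM, 4 with median-of-ratios, 16 with totals less miR166 guides, 1 with adjusted P, 1 with prior count 2 and 0 with a coefficient of variation of 0.2, of 0.4 or at the common dispersion. The 10 called lower became 5 with TMM, 2 with totals less miR166 guides, 31 when every entry was counted, 6 with adjusted P and 1 with a coefficient of variation of 0.4. The median log2 fold change went from -0.06 to 0.09 with TMM and 0.38 with totals less miR166 guides. Totals less miR166 guides may subtract reads more than once, so the size of that shift is uncertain. The difference between lines gave 10 calls in place of 28 with TMM, 11 with median-of-ratios, 11 with clean reads and 13 at the common dispersion. The sign of miR162a, miR1862d and miR398b, none of them called, differed in 1 or more of TMM, median-of-ratios and clean reads. Totals less miR166 guides turned the sign of further named miRNAs that were not called. Among them were miR159a.1 (-0.32 to 0.12), miR168a-3p (-0.15 to 0.30), miR396c-5p (-0.33 to 0.12), miR444b.2 (-0.17 to 0.28) and miR827 (-0.20 to 0.25). The fit over both lines called 0 in every alternative run. No paired analysis was possible because the groups share only replicate number 1, and the fit over both lines instead has line as a term. Depth limits sequences under 20 reads, where the self-test called 2 of 37 changed 2-fold. The cause of these changes was not tested.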
